A study of Mus musculus with 6 samples.

Results

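Respiratory complex I (NADH:ubiquinone oxidoreductase) was examined through 37 gene symbols, nuclear-encoded subunits and 1 copy of a subunit gene, out of 24067 symbols listed in both expression tables of the series. The members were a fixed list of symbols, chosen by name: 6 core subunits and 31 accessory entries. All 37 were found, and each had the same locus in both tables.

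The cells were satellite cells of mouse skeletal muscle, which serve as its stem cells, and polyadenylated RNA was sequenced in 4 libraries. Wild-type (WT) cells and cells labelled iKO for Yy1, the gene of a zinc finger transcription factor, were each sequenced freshly isolated (FISC) and activated by 36 h in culture (ASC). YY1 binding was mapped in activated C57 cells from 1 immunoprecipitation library with 1 input library. Every group is 1 library, so nothing below has a replicate error or a test. The labels and protocols used here leave unsaid the age of the mice, how many were pooled, the strain of the RNA libraries and what drives the deletion.

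Complex I takes electrons from NADH, passes them along flavin and iron-sulfur clusters to ubiquinone and pumps protons across the inner mitochondrial membrane. Its peripheral arm reaches into the matrix and carries the electron path, and its membrane arm holds the proton channels. Core subunits are shared with the bacterial enzyme and are encoded partly in the nucleus and partly in mitochondrial DNA, and accessory subunits surround and stabilise them. Satellite cells leaving quiescence are known to enlarge their mitochondrial mass.

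Sequences around YY1 motif letters in the members' promoters are shown first. Of the 8 members with a YY1 peak described below, 7 had a promoter window and 4 of these held the letters. The share over all genes with a peak and a window is not given here. Promoter windows of 250 bases before to 50 bases after an annotated start site were taken from RefSeq (GRCm38.p6), which matched 33 of the 37 symbols. The letters AANATGGC, searched on both strands (GCCATNTT on the other), were in 12 of these 33 members, against 928 of 8592 genes tested in ASC that had a window (10.8%) and 6.05% of all 32851 windows. In 7 of the 12, the letters stood 23 to 39 bases after the start site on the gene's own strand, each time as AAGATGGC. Counted as matches, these were 7 of 13 in the members, where over all windows 32.1% of 2104 matches lay after the start site. The letters contain ATG, so a match just after a start site can coincide with a start codon, which was not determined here. The 30-base sites below are written 5′ to 3′ on the gene's strand with the matched letters in capitals.
Ndufc1: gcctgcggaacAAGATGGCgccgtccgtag
Ndufs7: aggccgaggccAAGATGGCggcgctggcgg
Ndufs4: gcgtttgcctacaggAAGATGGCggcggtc
Ndufs6: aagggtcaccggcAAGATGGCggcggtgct
Ndufa9: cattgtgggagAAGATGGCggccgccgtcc
Ndufa3: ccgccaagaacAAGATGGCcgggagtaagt
Ndufb8: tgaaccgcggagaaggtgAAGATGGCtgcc
These sites are, in GRCm38.p6, chr3:51408915-51408944 (minus strand) for Ndufc1, chr10:80249462-80249491 (plus) for Ndufs7, chr13:114388045-114388074 (minus) for Ndufs4 and chr13:73328433-73328462 (minus) for Ndufs6. The others are chr6:126849097-126849126 (minus) for Ndufa9, chr7:3617384-3617413 (plus) for Ndufa3 and chr19:44555393-44555422 (minus) for Ndufb8.

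For 2 members with a YY1 peak, the letters stood before the start site, and the stretch that lies outside every RefSeq gene is shown with the matches in capitals. That of Ndufb5 is chr3:32736813-32737056 on the plus strand and holds 2 matches, starting 225 and 73 bases before the start site. That of Ndufs8 is chr19:3912775-3913024 on the minus strand and holds 1 match, starting 165 bases before it.
Ndufb5: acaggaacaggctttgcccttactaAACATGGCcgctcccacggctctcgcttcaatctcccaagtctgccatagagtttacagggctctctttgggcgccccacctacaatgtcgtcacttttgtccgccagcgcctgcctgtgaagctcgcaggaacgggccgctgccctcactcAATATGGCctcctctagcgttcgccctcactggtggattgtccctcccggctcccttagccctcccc
Ndufs8: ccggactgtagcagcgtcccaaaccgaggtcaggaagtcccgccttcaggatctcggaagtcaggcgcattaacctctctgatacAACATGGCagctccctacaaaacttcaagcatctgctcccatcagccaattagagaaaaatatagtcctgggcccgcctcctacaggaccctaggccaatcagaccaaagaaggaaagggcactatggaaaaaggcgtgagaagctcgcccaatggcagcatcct

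The targeted gene was lower in both iKO libraries. Yy1 stood at 51.0 FPKM in FISC WT, 20.1 in FISC iKO, 55.2 in ASC WT and 2.03 in ASC iKO, where FPKM is fragments scaled to transcript length and library size. Genes were tested when they reached 1 FPKM in at least 1 library of a pair, and a ratio is log2 of (FPKM + 1) in iKO over WT. A member is counted as higher or lower at 2-fold, a limit of size and not a test. Among genes of at most 0.3 FPKM, 12.3% of 1573 in the ASC pair shared an FPKM ratio of iKO to WT of 1.505. In FISC 23.3% of 1542 shared one at 0.994. If these are ratios of FPKM per read and FPKM was divided by total reads, the ASC WT library was 1.505 times as deep. The scaling of the FPKM is not given, so relative depth is uncertain. The 9 satellite cell markers summed to 2902, 2743, 1213 and 1037 FPKM in the order FISC WT, FISC iKO, ASC WT and ASC iKO, and none was at 0. In FISC 5 of the 9 had a ratio above 0, with a median of 0.03 and a range from −0.54 (Vcam1) to 0.44 (Myod1). In ASC 8 of 9 lay below 0, with a median of −0.50, and Pax7 and Vcam1 were 2-fold lower in iKO. By library, Pax7 stood at 61.8, 78.3, 28.3 and 6.19 FPKM in that order and Myod1 at 411, 558, 698 and 598. Summed markers of mature muscle fibres, which are rich in mitochondria, were 26.1, 30.3, 6.24 and 5.57 FPKM over 7 genes in that order, with Myh2 at 0 in both ASC libraries. The 5 immune markers summed to 6.93, 6.52, 4.18 and 14.9 FPKM, with Ptprc and Adgre1 at 0 in both ASC libraries and Cd14 at 2.80 and 9.75 in ASC WT and iKO. The 4 fibroblast markers summed to 336, 322, 38.5 and 18.005 FPKM, the 4 endothelial ones to 16.9, 14.002, 2.05 and 2.49, and the 5 erythroid ones to 385, 496, 0 and 0.0561, with all 5 at 0 in ASC WT. The part of these differences in the results was not tested. In bulk RNA, fewer cells of a type and less RNA per cell cannot be told apart.

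Complex I genes stood close to WT in freshly isolated iKO cells and above WT in activated iKO cells. In FISC, 0 of 36 tested members were 2-fold higher or lower, with a median ratio of 0.08 and a range from −0.35 to 0.45, with 21 above 0 against 49.6% of all genes, beside a median of −0.0027 over all 11229 genes, of which 0.677% were 2-fold higher and 0.721% lower. BC002163 was below 1 FPKM in both FISC libraries and was not tested there. In ASC, 23 of 37 members were at least 2-fold higher in iKO and 0 were lower, where 8.74% of all 11215 genes were higher and 8.26% lower. The median ratio was 1.12 and 36 of 37 members lay above 0, against 49.8% of all genes. Scaling the libraries to a shared upper quartile moved the median of all ASC genes by −0.14 and left 17 members 2-fold higher and 36 above 0. The shares of all genes after that scaling are not given here.

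**Figure D1:**
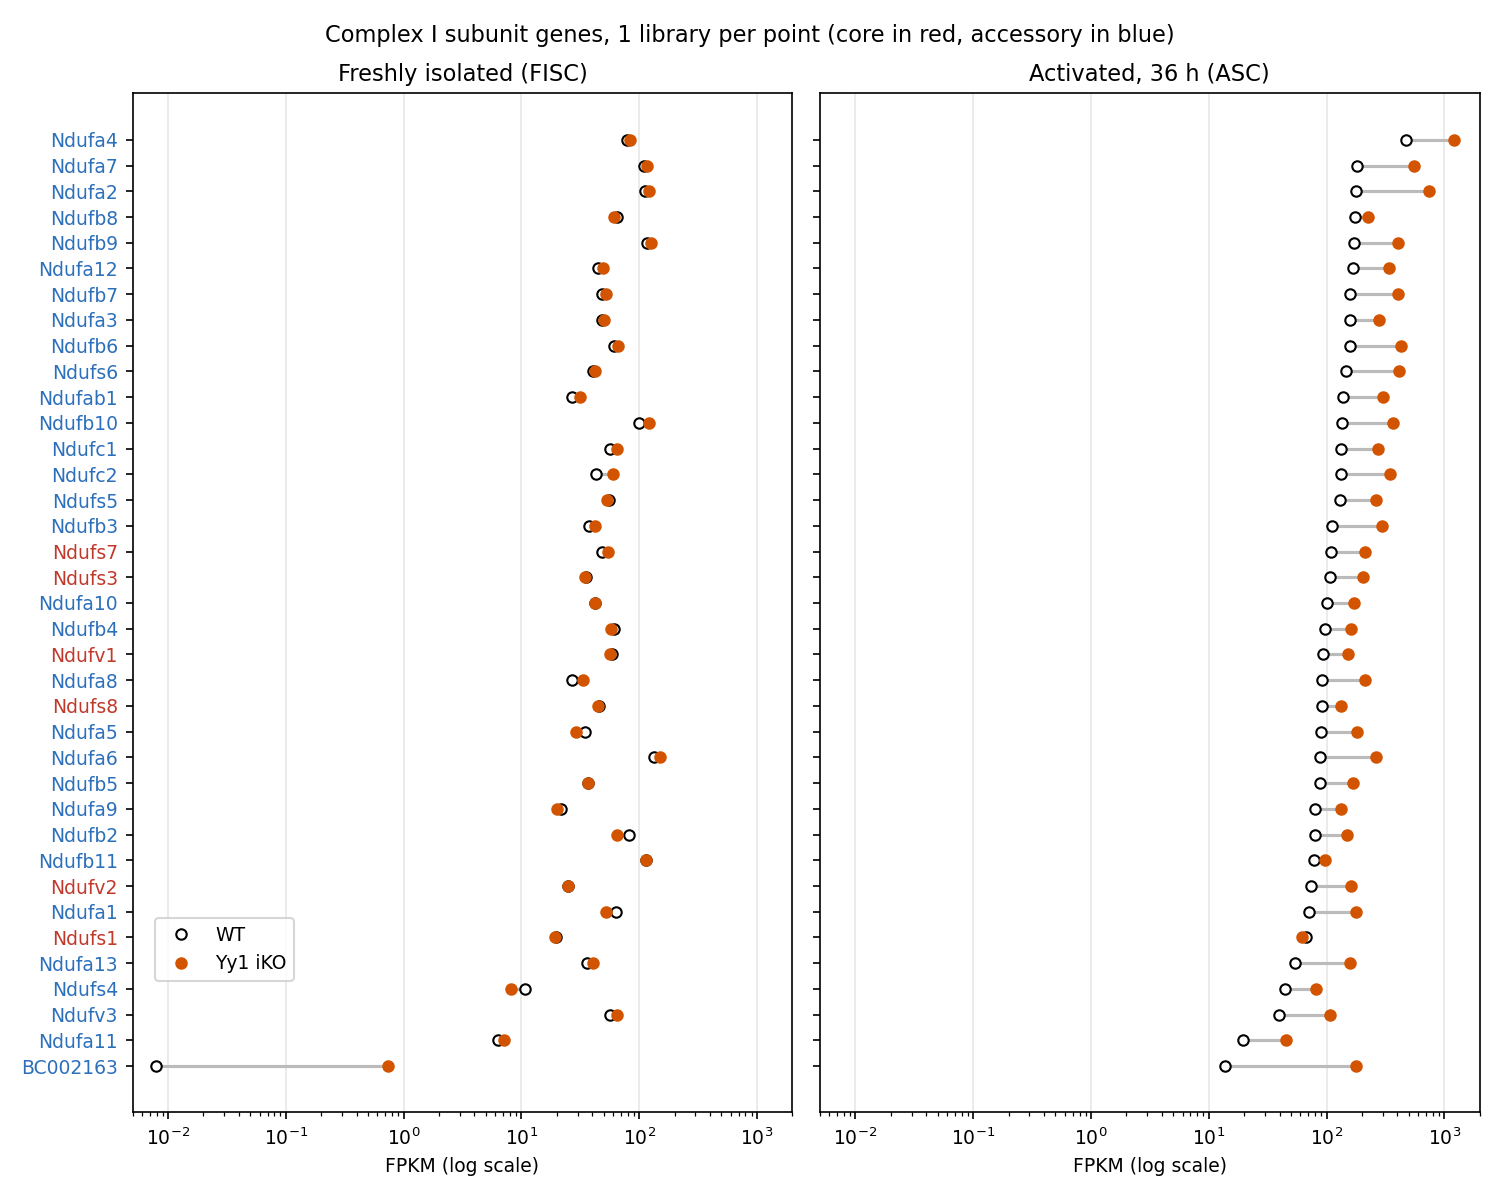
FPKM (log scale) of each member in the WT (open) and Yy1 iKO (filled) library of freshly isolated (left) and activated cells (right), 1 library per point, ordered by level in ASC WT. In FISC the 2 points of a gene nearly coincide except for BC002163, and in ASC the iKO point lies to the right for every gene except Ndufs1.

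The core subunits, which carry the electron path, had the lower median ratio. In ASC their median was 0.83 with 1 of 6 at 2-fold, against 1.21 and 22 of 31 for the accessory entries, a difference of −0.38. The classes overlapped, with the accessory genes Ndufb11 at 0.32 and Ndufb8 at 0.38. The accessory count includes Ndufa4 and the copy BC002163, both described below. In FISC the medians were −0.03 and 0.08, and with upper-quartile scaling the core median there lay at 0.017, on the other side of 0. Ndufv1, which binds NADH and the flavin, stood at 59.1 and 56.8 FPKM in FISC WT and iKO and at 92.5 and 153 in ASC WT and iKO. Ndufv2, an iron-sulfur subunit beside it, stood at 24.8, 25.1, 74.5 and 163 FPKM in the same order and was the only core member past 2-fold, 2.17-fold higher in ASC. Ndufs1, the large iron-sulfur subunit, stood at 19.7 and 19.2 FPKM in FISC and at 66.5 and 62.1 in ASC. It was the only member with an ASC ratio below 0, at −0.10. Of the core subunits next to the ubiquinone site, Ndufs3 stood at 35.5, 34.8, 106 and 206 FPKM and Ndufs7 at 48.7, 54.8, 109.8 and 214, both just short of 2-fold in ASC. Ndufs8, an iron-sulfur subunit of the same part, stood at 45.6, 44.3, 91.0 and 133 FPKM, a ratio of 0.54. The core genes thus ran from below WT to 2-fold above it in ASC while lying within 0.17 of WT in FISC.

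The accessory subunits of the peripheral arm had the highest median ratio in ASC, 1.41, with 7 of 9 at least 2-fold higher. Ndufa2, a small subunit with a thioredoxin-like fold (chromosome 18, 36894724 to 36904241, mm9), stood at 113 and 120.2 FPKM in FISC and at 179.7 and 747 in ASC, 4.14-fold higher on the FPKM + 1 scale. Its listed locus is shared with Tmco6, which stood at 4.56 and 10.4 FPKM in ASC, so the split of reads between them is uncertain. Ndufa7 followed at 109.3, 116, 179.8 and 551 FPKM, 3.05-fold higher in ASC. Ndufa6, a protein of the LYR family that binds the acyl carrier protein, stood at 135, 150.4, 88.8 and 261 FPKM, and the zinc-binding Ndufs6 at 40.7, 42.4, 147 and 415. These 4 genes were flat in FISC, with ratios from 0.06 to 0.16. Ndufv3 stood at 57.1, 65.3, 39.8 and 107 FPKM. Ndufa5 and Ndufa12 lay at the 2-fold limit in ASC, with ratios of 1.02 and 1.03. Ndufs4, a subunit needed for a stable NADH-binding part, stood at 10.7, 8.22, 44.6 and 80.9 FPKM, and Ndufa9, which has a dehydrogenase-like fold, at 21.8, 20.0, 80.2 and 131. Both lay below WT in FISC and above it, within 2-fold, in ASC.

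Among accessory entries of the proximal membrane arm, 8 of 10 were at least 2-fold higher in ASC iKO, with a median of 1.20. Ndufa13, also known as GRIM-19, stood at 35.8, 40.6, 54.4 and 157 FPKM, and shares its listed locus with Tssk6, which stayed under 1 FPKM in every library. Ndufc2 stood at 43.3, 59.6, 132 and 348 FPKM and had the highest FISC ratio of all tested members, 0.45. Ndufa1, an X-linked subunit, stood at 63.8, 52.4, 71.6 and 179 FPKM, so it lay on opposite sides of WT in the 2 states. Ndufa8, a cysteine-rich protein of the intermembrane space side, stood at 26.7, 33.7, 91.1 and 212 FPKM. Apart from the copy BC002163, Ndufa11 was the lowest member in every library, at 6.28, 7.14, 19.4 and 45.5 FPKM. Ndufc1 was 2.03-fold higher in ASC. Below 2-fold in ASC were Ndufa3, at 48.1, 50.7, 159 and 281 FPKM, and Ndufa10, a subunit with a nucleoside kinase fold, at 42.4, 42.2, 101 and 172.

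Ndufs5 and BC002163 have to be read together. Ndufs5 encodes a small cysteine-rich subunit (chromosome 4, 123389953 to 123395429, mm9), and BC002163, known as a near-identical copy of it, is listed in a 735 kb locus on chromosome 16 together with Zbtb20, Gm15713 and Gm19522. Ndufs5 stood at 55.7, 53.0, 131 and 265 FPKM, and BC002163 at 0.00796, 0.742, 13.8 and 179. The copy held 9.56% of their sum in ASC WT and 40.3% in ASC iKO, a split that reads shared between near-identical sequences can set. Their sum was 55.7 and 53.8 FPKM in FISC and 144 and 443 in ASC, a ratio of 1.61. Zbtb20, in the locus of the copy, went the other way in ASC at 3.10 and 1.92 FPKM. Summing the pair left 22 of 36 genes at least 2-fold higher in ASC.

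The distal membrane arm, the end with the antiporter-like proton channels, had a median ASC ratio of 1.12 with 6 of 11 genes at least 2-fold higher. Ndufb6 stood at 61.2, 66.2, 158 and 428 FPKM, and Ndufb10 at 98.9, 120.3, 137 and 368. Ndufab1, the mitochondrial acyl carrier protein, stood at 27.05, 31.4, 138 and 301 FPKM. Ndufb3, Ndufb7 and Ndufb9 were 2.64-fold, 2.52-fold and 2.38-fold higher in ASC. The lowest ratios were those of Ndufb8, at 64.9, 61.8, 173 and 226 FPKM, and the X-linked Ndufb11, at 114, 113, 77.9 and 97.5. Ndufb11 shares its listed locus with Rbm10, which stood at 35.2 FPKM in ASC WT and 23.9 in ASC iKO. Ndufb2, Ndufb4 and Ndufb5 lay between, with ASC ratios of 0.90, 0.74 and 0.92. Ndufb2 had the lowest FISC ratio of all members, −0.35, at 82.6 FPKM in WT and 64.5 in iKO. Ndufa4, once counted with complex I and now assigned to cytochrome c oxidase, stood at 79.0, 83.6, 471 and 1209.9 FPKM and was the highest member in both ASC libraries.

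**Figure D2:**
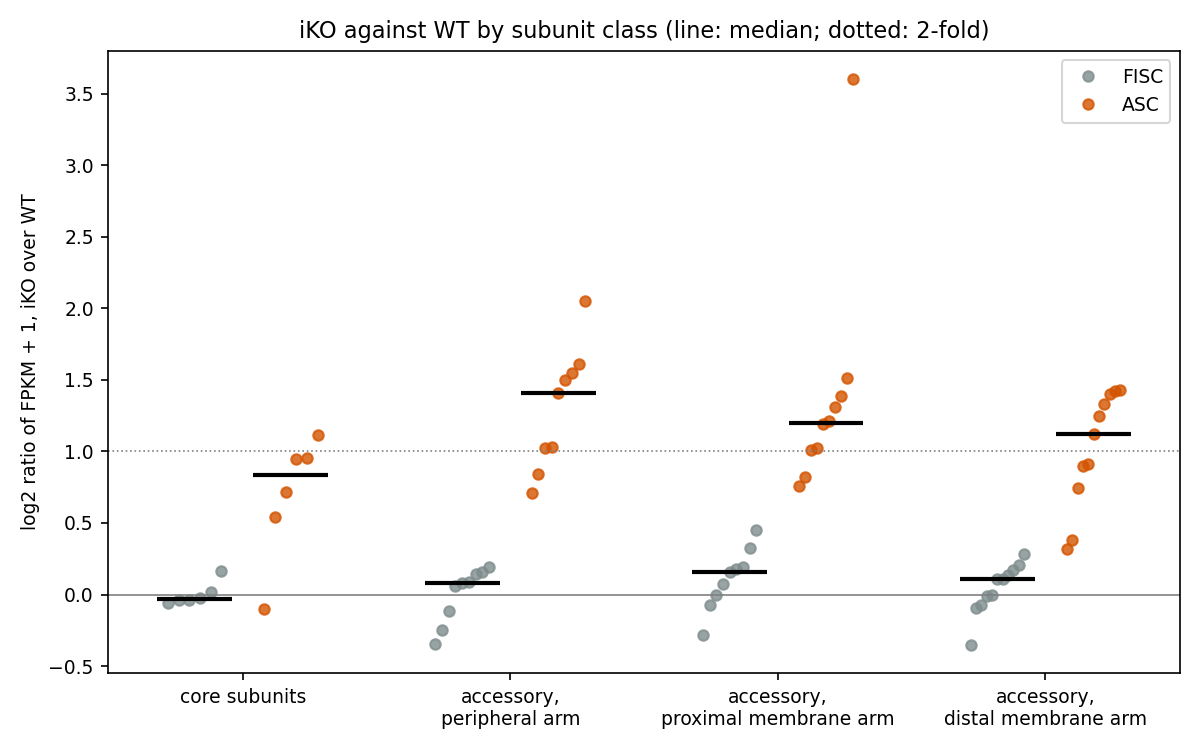
Log2 ratio of FPKM + 1, iKO over WT, of each member by subunit class in FISC (grey) and ASC (orange), with the median of each class as a line. Ndufa4 is not placed, and BC002163 (3.60) is the point at the top. FISC ratios lie between −0.35 and 0.45, while class medians in ASC are 0.83, 1.41, 1.20 and 1.12 from left to right.

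Across the 36 genes tested in both states, the FISC and ASC ratios had a Spearman correlation of 0.61 and a Pearson correlation of 0.43. The points come from 2 separate pairs of libraries and share gene length and base composition. Levels of the 36 subunit genes without BC002163 kept their order within a state (Spearman 0.96 in FISC and 0.90 in ASC, WT against iKO) more closely than between states (0.44 in WT). Their summed level was 2008 and 2098 FPKM in FISC and 4310 and 9897 in ASC, WT and iKO.

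Gene loci of complex I are short, and in the ASC pair short loci had higher ratios among all genes. Over 11215 genes the Spearman correlation of ratio with locus length was −0.44, and over the 36 members without BC002163 it was −0.15 (Pearson with log10 length −0.35), with the single libraries shared by all points. Over the 31 members with a locus of their own it was 0.02 (Pearson −0.07). The 23 members under 10 kb had a median of 1.25 with 16 at 2-fold, and the 14 at 10 kb or more had 0.99 with 7. All genes tested in those length ranges had medians of 0.49 and −0.14, and 21.5% and 4.74% of them were 2-fold higher. Among genes that reached 50 FPKM in ASC, the corresponding medians were 0.82 over 922 short and 0.29 over 1435 long genes, with 36.0% and 12.0% at 2-fold. Members in both ranges thus had higher medians than all genes, and than highly expressed genes, in the same range of listed locus length. Transcript length, by which FPKM is scaled, was not available for matching.

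Both classes were compared within each length range. Of the short loci, 3 core genes had a median of 0.72 with 0 at 2-fold, and 20 accessory genes had 1.32 with 16. Of the long loci, 3 core genes had 0.95 with 1 at 2-fold, and 10 accessory genes without BC002163 had 0.97 with 5. The classes overlapped in each range, and each holds only 3 core genes. Taken relative to the median of all genes in the same decile of listed locus length, the members' median in ASC was 0.86. Of the 37 members 12 were then at 2-fold, BC002163 among them. Of these 12, 11 were also at 2-fold before the adjustment and Ndufs4 only after it. The share of all genes at 2-fold after the adjustment is not given here. The listed locus of 6 members, Ndufb11 and BC002163 among them, also holds another symbol, which can set their decile. On that scale Ndufs8 (−0.13) and Ndufb8 (−0.01) lay at the level of other short genes, Ndufs1 lay at 0.22, and Ndufs4, in a 100.3 kb locus, at 1.26. The short loci then had the lower median, by −0.22 against the long ones, the reverse of the direction without that adjustment.

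**Figure D3:**
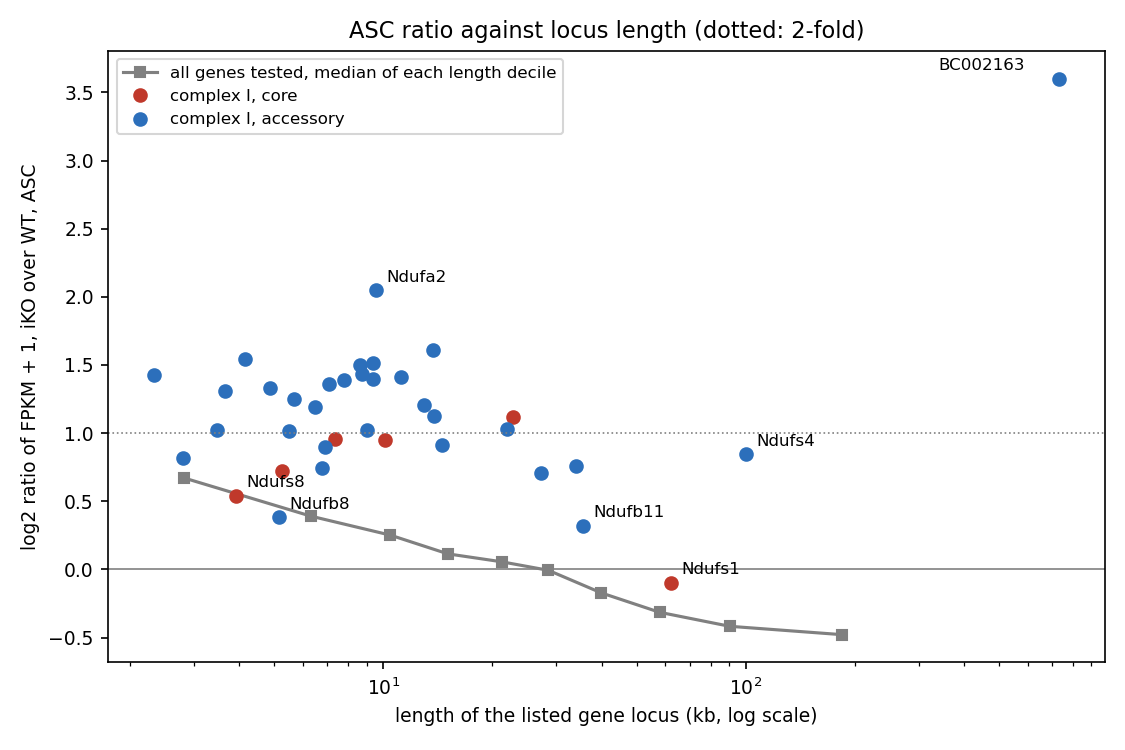
Log2 ratio of FPKM + 1, iKO over WT in ASC, of each core (red) and accessory (blue) member against the length of its listed locus (kb, log scale), with the median of all genes tested in each decile of locus length as grey squares. Grey medians go from 0.67 at 2.81 kb to −0.48 at 184 kb. All but 2 members, Ndufs8 and Ndufb8, lie above the median of the decile of their listed locus. For 6 members, Ndufb11 and BC002163 among them, that locus also holds another symbol, which can set the decile.

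YY1 peaks were near the locus ends of 8 of the 37 members, 21.6%, counting peak summits within 2 kb, where 6.21% of all genes tested in ASC had one. Among genes that reached 50 FPKM in ASC the share was 9.89% of 2357. All coordinates of peaks and loci are in mm9, and which end is the 5′ end was read from the gene's strand in RefSeq. Each fold enrichment, −log10 p and −log10 q below was assigned by the authors' peak caller in the deposited list of 2031 peaks. The strongest, at Ndufb5 (chr3:32635629-32636078), had a fold enrichment of 14.8 and a −log10 p of 28.5, rank 16 in the list. Its summit lay 213 bases outside the 5′ end and also within 2 kb of Mrpl47, a mitochondrial ribosomal protein gene. That of Ndufa13 had a fold enrichment of 11.03 and a −log10 p of 21.5, with its summit 1827 bases inside the 5′ end of the shared locus.

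The other 6 peaks had lower values, with −log10 p from 4.08 to 7.52, where the median of the list was 4.84. Those of Ndufc1, Ndufa6, Ndufs7, Ndufa2 and Ndufs8 ranked from 281 to 355 of 2031, and that of Ndufa5 ranked 1706. At a −log10 p of 10 or more, 2 of 37 members had a peak, against 1.78% of all genes tested in ASC. Ndufc1 had a −log10 q of 2.63, Ndufa6 2.08, Ndufs7 1.47, Ndufa2 and Ndufs8 1.14, and Ndufa5 0. The peak of Ndufa2 was also near Tmco6 and Ik, and that of Ndufs8 near Aldh3b1. That of Ndufa5 lay 1732 bases from the 3′ end of its locus.

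The YY1 letters shown at the opening stood close to 4 of these summits, as measured from the start of each gene in its own build. How often this holds over all genes with a peak is not given here. The summit at Ndufs8 lay 163 bases before the 5′ end and the letters start 165 bases before the RefSeq start site. At Ndufb5 the summit lay 213 bases before it and the farther match starts at 225. At Ndufc1 the summit lay 31 bases inside the locus and the letters start at base 23, and at Ndufs7 the values were 15 and 25. The 300-base windows of Ndufa5, Ndufa6 and Ndufa13 held none of these letters. The summit at Ndufa5 lay 1732 bases from the 3′ end of its locus, away from the window at its start site. Those at Ndufa6 and Ndufa13 lay 98 and 1827 bases inside the 5′ end of the listed locus. Whether their windows reached these summits was not determined. The windows thus cannot show whether the letters stood near these summits.

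Members with and without a peak had like ratios. In ASC the 8 with a peak had a median of 1.02 with 5 at 2-fold, and the 29 without had 1.12 with 18. Over all genes tested in ASC, 11.5% of 697 with a peak and 8.56% of 10518 without were 2-fold higher. Their medians were 0.053 and −0.0063. In FISC the medians of members with and without a peak were 0.12 and 0.07. The 12 members with the YY1 letters had a median ASC ratio of 0.88 with 4 at 2-fold, and the 21 with a window and no such letters 1.19 with 16. These groups overlapped, with Ndufa7 at 1.61 on the one side and Ndufv1 at 0.72 on the other. The split by letters has no value over all genes here.

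**Figure D4:**
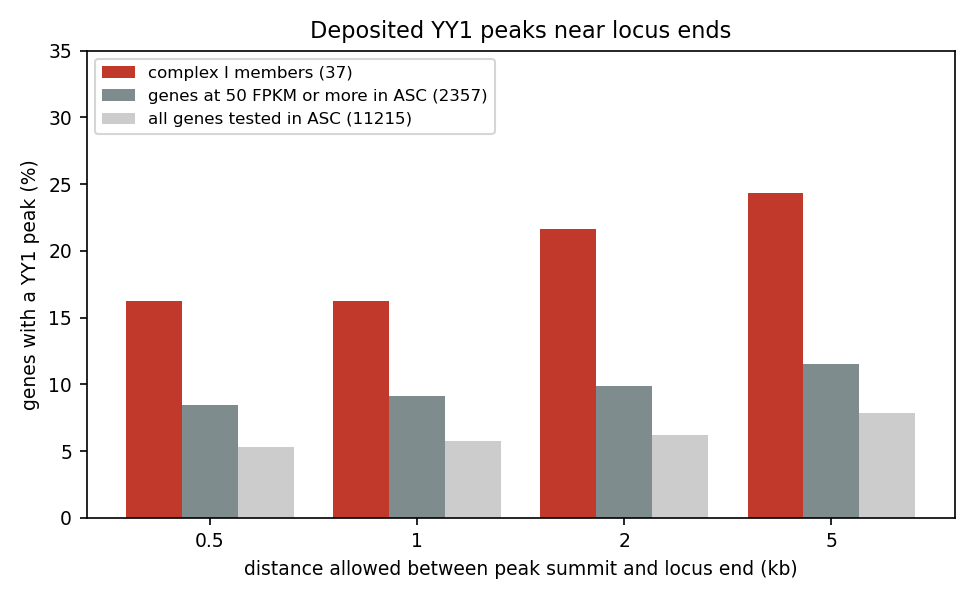
Share of genes (%) with a deposited YY1 peak summit within 0.5, 1, 2 or 5 kb of a locus end, for the members, for genes that reached 50 FPKM in ASC and for all genes tested in ASC. Member bars stand at 16.2%, 16.2%, 21.6% and 24.3%, above both others at each distance, and rest on 6, 6, 8 and 9 genes.

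Activation was described by setting ASC against FISC within a genotype after scaling all 4 libraries to a shared upper quartile, across tables that may have been normalized separately. In WT the members' median was 1.01 and 19 of 37 were at least 2-fold higher in ASC, against 23.2% of all genes. In iKO it was 1.71 with 30 of 37, against 21.7%. As deposited, the medians were 1.345 in WT and 2.30 in iKO, so the iKO median was again the higher. The order was the reverse only with the libraries scaled to the same sum of FPKM, at 1.46 in WT and 1.08 in iKO. In ASC iKO that sum was 1245942, of which 1 microRNA gene, Mir762, holds 496241, while it was at 0 in every other library. Scaling to the sum without Mir762 was not tried. With upper-quartile scaling, 5 members lay below 0 in WT, against 46.5% of all genes, namely Ndufa6 (−0.93), Ndufb11 (−0.88), Ndufv3 (−0.84), Ndufb2 (−0.39) and Ndufa1 (−0.17). As deposited, Ndufa1 lay above 0, and with the same sum of FPKM both Ndufa1 and Ndufb2 did, while Ndufa6, Ndufb11 and Ndufv3 lay below 0 under all 3 scalings. Ndufa6 was the highest member in FISC WT and the 25th in ASC WT.

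Assembly factors, which build the complex without staying in it, had a lower median ratio than the subunits. Of 18 listed factors 15 were in the tables, with a median of 0.36 in ASC. There 3 were at least 2-fold higher and 0 lower, against 8.74% and 8.26% of all genes. The factors stood at 6.07 to 49.1 FPKM in ASC WT, where the median subunit gene without BC002163 stood at 103.6. Their loci ran from 1.48 kb (Ndufaf3) to 213 kb (Nubpl). The lists were not matched for level or locus length. Ndufaf2 stood at 16.1, 12.6, 49.1 and 112 FPKM, Ndufaf1 at 4.24, 4.93, 18.8 and 38.8, and Ndufaf7 at 2.52, 3.82, 11.3 and 23.8. Tmem126b, a membrane-arm assembly factor, went the other way at 0.696, 1.03, 11.1 and 5.37 FPKM, as did Ndufaf6 at 13.7 and 8.31 in ASC. Acad9 and Tmem186 also lay below 0 in ASC. In FISC the median was −0.14 with 0 at 2-fold. A YY1 peak was near Tmem126b (26 bases from a locus end, −log10 q 2.99) and Ndufaf2 (479 bases, −log10 q 0.25). That was 2 of 15, against 6.21% of all genes tested in ASC. Upper-quartile scaling put the ASC median at 0.20.

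The other respiratory complexes give the scale of these values in the same ASC libraries. The median ratio was 1.14 over 10 genes of complex IV with 8 at 2-fold, 0.99 over 16 of ATP synthase with 8, 0.86 over 9 of complex III with 4 and 0.29 over 4 of complex II with 0. Complex I, at 1.12, lay inside this range, and no difference between complexes was tested.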

How the data were processed

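The authors deposited FPKM for 1 WT and 1 iKO library in each of 2 tables and 1 YY1 peak list. Per the submitters' processing notes, the tools included MACS2 2.1.0, Cufflinks 2.2.1 and TopHat2, with the mm9 build. The sources used here do not give the annotation, strand setting or scaling. In the deposited list each peak has a score (10 times −log10 p, truncated), a fold enrichment ratio, and −log10 p and q values.

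Ratios were log2((FPKM + 1)/(FPKM + 1)) for genes with at least 1 FPKM in 1 library of the pair, computed over each whole table in Python 3.11.15 with pandas 2.3.3, and checked on simulated data. A pseudocount of 1 understates the change of low genes. With 1 library per group there is no test, and total depth is unknown. Deposited locus starts were read as counted from 0, since 8582 of 23099 symbols then match the RefSeq gene length and 541 otherwise, and are printed counted from 1. All members were eligible for naming, as were assembly factors at 1 FPKM, Yy1, markers and genes sharing a member's locus. The members, lists and limits were chosen with earlier results of these data known. Alternatives covered the pseudocount, filter, scaling, class and length limits and peak distance.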

Additional observations from a re-analysis of the deposited data

Results flagged for a closer look

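For 9 members the iKO ratio was below 0 in FISC and above 0 in ASC, as deposited, with upper-quartile scaling and with centring on the median of all genes. That was 9 of 36 members tested in both states, against 15.1% of 10251 genes. Relative to genes in the same decile of locus length, Ndufb8 lay at −0.0064 in ASC and was no longer among them. In ASC 36 of 37 members lay above 0, so the count of 9 turns on the FISC sign and restates the ASC shift. In FISC 21 of 36 members lay above 0 as deposited, against 49.6% of all genes. Centring is hardly a separate check, since the medians it removes were −0.0027 in FISC and −0.0025 in ASC. The difference between states was not tested, since each state has 1 library per genotype. The FISC and ASC log2 ratios were −0.28 and 1.31 for Ndufa1, −0.24 and 1.02 for Ndufa5, −0.11 and 0.71 for Ndufa9, and −0.35 and 0.90 for Ndufb2. For Ndufb4 they were −0.092 and 0.74, for Ndufb8 −0.071 and 0.38, and for Ndufs4 −0.34 and 0.84. For Ndufs5 they were −0.070 and 1.01, and for Ndufv1 −0.057 and 0.72.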

How the results depend on the processing

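Of 106 recomputed summary values 88 moved by at most 0.1 on the log2 scale, or by at most 1.5 times for counts. The 88 include values that a setting could not change, such as class differences under centring. They also include the fall from 23 to 17 members at 2-fold in ASC under upper-quartile scaling. The share is thus no measure of stability. Upper-quartile scaling gave a members' median of 0.95 in ASC and an assembly factor median of 0.20. Means in place of medians gave −0.53 for core minus accessory and 0.058 for short minus long loci in ASC, and −0.040 for assembly factors in FISC. Without the 6 members whose listed locus holds another symbol, core minus accessory was −0.25 and short minus long 0.11. Short minus long was 0.36 with Ndufs5 and BC002163 summed and 0.41 with a limit of 20 kb. Relative to genes in the same decile of locus length, an alternative chosen after seeing the data, the ASC values were 0.86 for the members, 12 members at 2-fold, −0.49 for core minus accessory and −0.22 for short minus long, which reversed. No share of all genes is given beside the 12 or the 17 members. Peaks with −log10 p of at least 10 were near 2 members. Activation medians were 1.345 in WT and 2.30 in iKO as deposited, and 1.46 and 1.08 scaled to the same sum. The causes were not tested. No paired analysis was possible because each group has 1 library.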

Other observations

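Letters of other regulators of respiratory genes were searched in the same promoter windows. Those of NRF1, matched on both strands, a transcription factor known for respiratory chain genes, were in 7 of 33 members, 21.2%, against 12.6% of genes tested in ASC. They were found in Ndufa5, Ndufa6, Ndufa8, Ndufa11, Ndufb4, Ndufs5 and Ndufs6, of which Ndufs6 also held the YY1 letters. Those of GABPA (CCGGAAG) were in 4 of 33, 12.1%, against 21.6%, and those of ESRRA (CAAGGTCA) in 1 of 33, Ndufs5, 3.03%, against 1.28%. A match is a description of letters in this window and not a binding site.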
